A study of Mus musculus with 19 samples.

Results

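Fragments of 5 nuclear tRNAs were read in the small RNA of mouse sperm: 3 that carry arginine (n-TRtct2 and n-TRtct4, which read the codon through the anticodon TCT, and n-TRtcg5, anticodon TCG), 1 that carries proline (n-TPtgg2, anticodon TGG) and 1 that carries isoleucine (n-TItat14, anticodon TAT). The members were all reads that matched one of these RefSeq loci in the sense orientation and with no more than 1 mismatch, after the CCA tail had been added to each locus and, for the 3 loci with an intron, also after the intron had been removed. A read was given to the tRNA it matched with the fewest mismatches, and a read that matched several equally well was divided between them. These rules found 165083 of 711662713 reads in 19 libraries, or 232 reads per 1000000 total reads (RPM), in 4577 distinct sequences. They were 4.99% of the 3307182 reads on the 32 tRNAs whose sequence was used here, 10 of them nuclear and 22 mitochondrial. RefSeq lists 408 nuclear tRNA loci, so a read counted here can also come from a locus that was not analysed here.

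A tRNA carries an amino acid on its 3′ end, where the bases CCA are added after transcription, and pairs with messenger RNA through its anticodon. Fragments cut from tRNAs are abundant in mature sperm, and several tRNA genes hold a short intron next to the anticodon that is spliced out before the tRNA is used. tRNAs carry many methylated bases, which can stop or mislead reverse transcriptase, and cut ends can carry phosphates that block adapter ligation.

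The study compared sperm of wild-type male mice given the corn oil vehicle (control) or dicyclohexyl phthalate (DCHP), a plasticizer, by oral gavage for 4 weeks from 8 weeks of age. Sperm came from the cauda epididymis after lysis of somatic cells, and the RNA was sequenced in 2 ways. In PANDORA-seq, the RNA was treated before library construction with AlkB, an enzyme that removes methyl groups from RNA bases, and with T4PNK, which leaves ends that can be ligated, while traditional RNA-seq used the RNA without these treatments. There were 4 control and 5 DCHP-exposed libraries of PANDORA-seq and 5 control and 5 DCHP-exposed libraries of traditional RNA-seq. The study calls the PANDORA-seq libraries biological replicates of mice and put sperm RNA of the control and exposed sires through both methods. Whether a library came from 1 male or from pooled males is not given in the sources used here, and the p-values measure the spread between these libraries.

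The libraries held 25432054 to 56506344 reads in PANDORA-seq against 21588335 to 52099239 in traditional RNA-seq, with 3718 to 18526 member reads each. Reads on miRNA hairpins, which stand here for the total miRNA that the study scaled to, numbered 278405 to 745141 in PANDORA-seq against 1117187 to 8825015 in traditional RNA-seq. All 9 sperm and spermatid mRNAs of a marker list were detected in each group, at a summed 188 to 316 RPM in PANDORA-seq against 173 to 347 in traditional RNA-seq. Single ones went either way, with control means of 87.9 against 29.7 RPM for Odf1 and 57.4 against 160.9 for Smcp. The 7 epithelial mRNAs summed to 453 to 893 RPM in PANDORA-seq against 49.4 to 191 in traditional RNA-seq, with 6 of 7 detected in 3 groups, 5 of 7 in the DCHP-exposed traditional libraries, and Cst11, a gene of the epididymal epithelium, at 0 in every library. Crisp1 held most of these sums, with control means of 563 and 103 RPM. The 4 blood mRNAs, all detected, summed to 87.6 to 159 and 3.65 to 26.2 RPM. The miRNA lists lay the other way round: the 2 germ line miRNAs summed to 0.511 to 5.64 RPM in PANDORA-seq against 76.0 to 409.6 in traditional RNA-seq, the 2 epithelial ones to 1.02 to 6.46 and 129 to 1004, and blood Mir451a ranged from 0 to 0.189 and from 1.79 to 65.9. Liver Mir122 ranged from 3.74 to 129 and from 783 to 70130 RPM, with the highest value in control replicate 2 of traditional RNA-seq, the library with the most miRNA reads. The part of these marker differences in the comparisons of the 2 methods was not tested. In such bulk samples, fewer cells of a type and less RNA per cell cannot be told apart.

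The sequences of 4 of the 5 tRNAs are shown because the fragments below are described by their place in them. Each is the RefSeq locus in GRCm38, 5′ to 3′, without its intron and with CCA added, and the anticodon is in capitals.
n-TRtct2: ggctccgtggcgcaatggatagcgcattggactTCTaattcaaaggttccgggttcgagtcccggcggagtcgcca
n-TRtcg5: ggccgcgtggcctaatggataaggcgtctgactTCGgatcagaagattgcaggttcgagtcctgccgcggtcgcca
n-TPtgg2: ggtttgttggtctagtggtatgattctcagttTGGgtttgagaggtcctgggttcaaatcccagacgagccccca
n-TItat14: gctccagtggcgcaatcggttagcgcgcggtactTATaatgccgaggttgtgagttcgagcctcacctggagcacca
Positions are counted from 1 at the 5′ end of these sequences. n-TRtct4 has the same length as n-TRtct2 and matches it at 66 of 73 positions before the CCA (90.4%). It differs by the substitutions C6T, C49G, C50T, G59A, G64A, G65C and G67A, with the base of n-TRtct2 first, so that positions 7 to 48 are the same in both. The other pairs of members were 44.6% to 73% identical. No other tRNA of the reference came within 3 differences of a member, and besides the members the reference held 1 other tRNA for each amino acid, the mitochondrial one.

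n-TRtct2 lies on the minus strand of chromosome 3 at 122292948 to 122293032, within an exon of Gm17494 on the same strand, and its 12-base intron is gaggctgaaggc. n-TRtct4 lies on the minus strand of chromosome 11 at 69123482 to 69123568, antisense to an untranslated part of the last exon of Hes7, and its 14-base intron is gtgacgagaaagcg. n-TRtcg5, which has no intron, lies on the plus strand of chromosome 7 at 79466419 to 79466491, within the single exon of Gm10616. n-TPtgg2, also without an intron, lies on the plus strand of chromosome 11 at 67291139 to 67291210, inside Myh8, a myosin heavy chain gene, in an intron of its coding transcript. n-TItat14 lies on the minus strand of chromosome 13 at 21896938 to 21897031, inside the hairpin annotated as Mir1983, and its 20-base intron is cagcagtatatgtgcgggtg.

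The 5 tRNAs differed in the number of reads they gave and in the part of the tRNA that the reads covered. n-TPtgg2 gave 116886 reads (70.8% of the member reads), n-TRtct2 16472 (9.98%), n-TRtct4 14158 (8.58%), n-TRtcg5 12790 (7.75%) and n-TItat14 4777 (2.89%). These are numbers of reads and are not corrected for length, but the 5 tRNAs are 72 to 74 bases long without intron and CCA. Among the tRNAs used here, all reads of n-TRtcg5 and 99.7% of those of n-TItat14 matched that tRNA alone. So did at least 99.99% of the n-TPtgg2 reads in each library. The share was 54.8% for n-TRtct2 and 47.3% for n-TRtct4, which share reads with each other. Matches to tRNA loci not analysed here are not seen in these shares. Between 74.9% and 79.3% of the reads of the arginine and isoleucine tRNAs matched without a mismatch, whereas only 336 reads of n-TPtgg2 (0.288%) did. Values given for n-TPtgg2 are thus those of the reads counted under that locus, and whether they came from it was not tested.

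**Figure D1:**
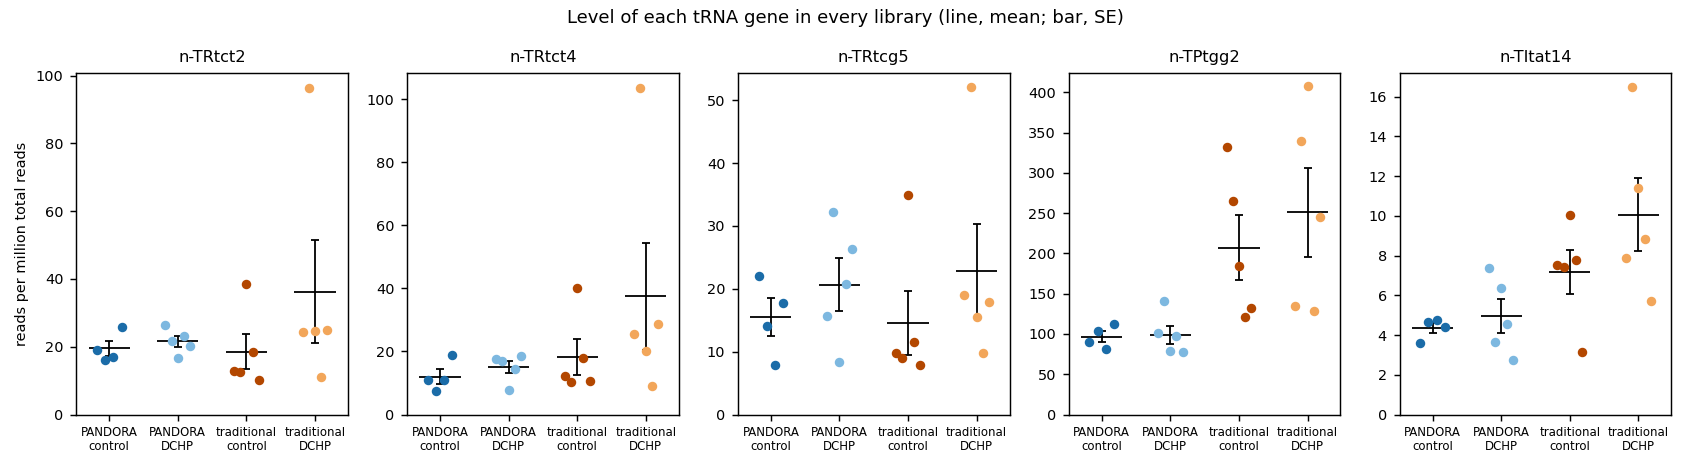
Levels of the 5 tRNAs in RPM in each of the 19 libraries, as points, with the mean and its standard error for each of the 4 groups. n-TPtgg2 lies highest in every group, between 78.2 and 407 RPM, and DCHP-exposed replicate 2 of traditional RNA-seq stands above its group for n-TRtct2, n-TRtct4 and n-TRtcg5.

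The pair of arginine tRNAs with anticodon TCT had 1 leading fragment in PANDORA-seq, an internal piece that begins in the D arm, crosses the anticodon and ends after the splice junction. These sequences are shown because they were the most abundant of the pair in all libraries or in 1 method, with capitals marking a base that differs from the locus. Whether the 1 with such a base came from n-TRtct2 was not tested.
positions 21 to 40, both tRNAs: agcgcattggacttctaatt
positions 20 to 40, both tRNAs: tagcgcattggacttctaatt
positions 15 to 30, both tRNAs: atggatagcgcattgg
positions 5 to 19, n-TRtct2: ccgtggcgcaatgAa
positions 1 to 18, n-TRtct4: ggctctgtggcgcaatgg
The 20-base fragment of positions 21 to 40 made up 35.6% of the n-TRtct2 reads and 52.5% of the n-TRtct4 reads in PANDORA-seq, and 14.3% and 14.2% in traditional RNA-seq. Counted whole, it had 11.8, 6.2, 11.6 and 23.4 RPM in control replicates 1 to 4 of PANDORA-seq and 20.8, 15, 6.72, 14.8 and 16.6 in DCHP-exposed replicates 1 to 5. In traditional RNA-seq it had 2.85, 0.749, 20.4, 10.3 and 1.82 RPM in the controls and 17.9, 1.76, 6.54, 0.296 and 0.155 in the DCHP-exposed libraries. The spread was thus wide in traditional RNA-seq, from 0.155 to 20.4 RPM, and the groups overlapped. Of the n-TRtct4 reads, 63.8% began at position 21 in PANDORA-seq against 23.5% in traditional RNA-seq, and 67.8% and 22.4% ended at position 40.

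A fragment of the very 5′ end set n-TRtct4 apart from n-TRtct2 in traditional RNA-seq. It began at the first base, 18 bases long in its most abundant form, and carries the base at position 6 that tells the 2 tRNAs apart. Of all n-TRtct4 reads, 27.1% began at position 1 in traditional RNA-seq and 2.71% in PANDORA-seq. The 18-base form had 0, 0.0756, 0.185 and 0.0531 RPM in the PANDORA-seq controls and 0.148, 0.509, 0.226, 0.175 and 0.453 in the DCHP-exposed libraries. The values in traditional RNA-seq were 1.03, 1.3, 3.14, 0.794 and 1.99 RPM in the controls and 0.418, 25.5, 1.47, 0.618 and 7.76 in the DCHP-exposed libraries. DCHP-exposed replicate 2 of traditional RNA-seq held the highest value, and the groups of each method overlapped. The fragment of positions 15 to 30 is shown for its abundance in traditional RNA-seq. It had group means of 2.11 (control) and 3.13 (DCHP) RPM there, against 0.0143 and 0.0224 in PANDORA-seq, a difference that was not tested.

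n-TRtct2 as a whole had 19.1, 16, 17 and 25.8 RPM in the PANDORA-seq controls and 26.3, 21.8, 16.7, 23.3 and 20.2 in the DCHP-exposed libraries. Traditional RNA-seq gave 12.8, 12.5, 38.4, 18.6 and 10.3 RPM in the controls and 24.3, 96.4, 24.7, 11 and 25 in the DCHP-exposed libraries. The groups overlapped in both methods, control replicate 3 and DCHP-exposed replicate 2 of traditional RNA-seq being the highest of their groups. n-TRtct4 had 10.8, 7.51, 11 and 18.9 RPM in the PANDORA-seq controls and 17.6, 16.9, 7.94, 14.3 and 18.5 in the DCHP-exposed libraries. In traditional RNA-seq it had 12.3, 10.4, 40.1, 17.8 and 10.7 RPM in the controls and 25.5, 103, 20.3, 9.17 and 28.7 in the DCHP-exposed libraries. The same 2 traditional libraries were the highest. DCHP-exposed replicate 2 had the fewest reads in total, 21588335, and the fewest miRNA reads, 1117187, of the traditional libraries and the highest Mir122 level of its group, 10010 RPM. Control replicate 3 had the highest epithelial and blood mRNA sums of the traditional libraries, 191 and 26.2 RPM. The part of these values in the high levels was not tested.

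**Figure D2:**
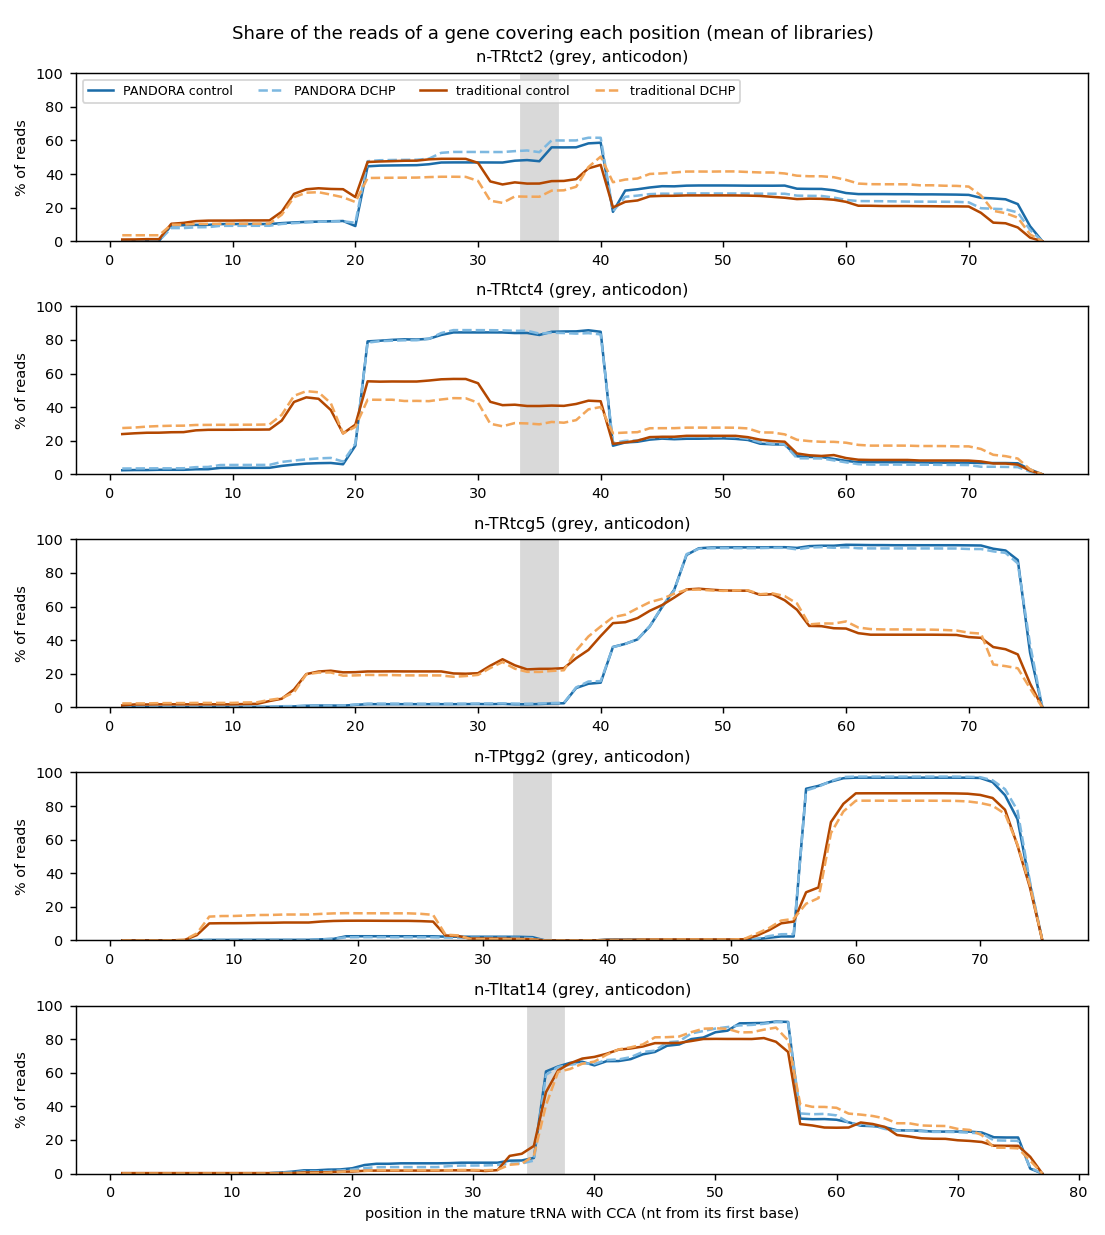
Share of the reads of each tRNA that cover each position from the 5′ end (horizontal axis, position in the tRNA without intron), in percent (vertical axis), as the mean of the libraries of each group, with the anticodon in grey. Reads of the TCT pair pile up before and over the anticodon, those of n-TRtcg5 and n-TPtgg2 on the 3′ side, and those of n-TItat14 from the anticodon onward.

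n-TRtcg5, the other arginine tRNA, gave 3′ fragments in PANDORA-seq and mainly internal fragments in traditional RNA-seq. Reads that end 1 to 3 bases before the last base of the CCA are called 3′ here, reads that reach that base 3′CCA, reads that start at the first base 5′, and all others internal. The first 3 sequences shown are the most abundant over all libraries, and the last 2 the most abundant in traditional RNA-seq.
positions 41 to 74: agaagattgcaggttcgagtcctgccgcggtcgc
positions 47 to 75: ttgcaggttcgagtcctgccgcggtcgcc
positions 47 to 74: ttgcaggttcgagtcctgccgcggtcgc
positions 38 to 71: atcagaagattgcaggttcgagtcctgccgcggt
positions 31 to 56: acttcggatcagaagattgcaggttc
In PANDORA-seq, 50.2% of the n-TRtcg5 reads ended at position 74 and 38.1% at position 75, against 18.5% and 15.9% in traditional RNA-seq, where 15.5% ended at position 71, before the CCA and the 2 bases that precede it. The 3′ share of the reads was 94.8, 89, 94.7 and 94.8% in the PANDORA-seq controls and 92.1, 94.2, 83.4, 94 and 95.8% in the DCHP-exposed libraries. The values in traditional RNA-seq were 24.6, 14.1, 63.7, 42.2 and 28.6% in the controls and 29.8, 30.6, 25.5, 13.7 and 23.3% in the DCHP-exposed libraries. The 9 PANDORA-seq libraries all lay above the 10 traditional ones. The fragment of positions 31 to 56, which holds the anticodon, had group means of 0.792 and 1.14 RPM in traditional RNA-seq, against 0 and 0.00423 in PANDORA-seq.

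The level of n-TRtcg5 was 22.1, 14.1, 7.86 and 17.8 RPM in the PANDORA-seq controls and 15.6, 32.3, 8.35, 20.8 and 26.4 in the DCHP-exposed libraries. Traditional RNA-seq gave 9.81, 9.0, 34.9, 11.6 and 7.81 in the controls and 19, 52.1, 15.4, 9.84 and 17.9 in the DCHP-exposed libraries. Control replicate 3 and DCHP-exposed replicate 2 of traditional RNA-seq were again the highest of their groups, and the groups overlapped in both methods.

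The reads counted for n-TPtgg2, the proline tRNA, were short fragments from the T arm and the 3′ side of the acceptor stem. Whether they came from this locus was not tested. Nearly all had a G where the locus sequence has another base at position 63 (A63G, locus base first). The 4 leading forms are shown with that G in capitals.
positions 56 to 73: aaatcccGgacgagcccc
positions 56 to 74: aaatcccGgacgagccccc
positions 58 to 72: atcccGgacgagccc
positions 58 to 73: atcccGgacgagcccc
The first pair were the leading forms in PANDORA-seq and the last pair in traditional RNA-seq. The traditional pair starts 2 bases further in at the 5′ end, and each pair has a form that ends at position 73, with the other ending at position 74 in PANDORA-seq and at position 72 in traditional RNA-seq. Position 56 was the start of 87.0% of the n-TPtgg2 reads in PANDORA-seq and of 11.1% in traditional RNA-seq, where position 58 was the start of 46.7% and position 59 of 11.3%.

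The form of positions 56 to 73 had 31.5, 39.4, 27.9 and 40.9 RPM in the PANDORA-seq controls and 44.1, 55.8, 30.7, 32.8 and 28 in the DCHP-exposed libraries. In traditional RNA-seq it had 9.9, 1.57, 24.3, 10.3 and 5.21 in the controls and 13.5, 20.8, 7.94, 0.968 and 1.64 in the DCHP-exposed libraries. Control and DCHP-exposed libraries overlapped in each method. The form of positions 58 to 72 had 0.55, 0.454, 0.231 and 0.513 RPM in the PANDORA-seq controls and 0.254, 1.44, 0.805, 0.489 and 2.18 in the DCHP-exposed libraries. The values in traditional RNA-seq were 70.8, 105, 8.52, 5.47 and 5.0 in the controls and 3.72, 37.7, 90.2, 8.95 and 83.5 in the DCHP-exposed libraries. In this form every traditional library lay above every PANDORA-seq library.

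All forms of n-TPtgg2 together had 90.6, 103, 81.2 and 112 RPM in the PANDORA-seq controls and 101, 140.4, 78.3, 97.9 and 78.2 in the DCHP-exposed libraries. Traditional RNA-seq gave 332, 265, 184, 121 and 132 in the controls and 135, 339, 407, 129 and 245 in the DCHP-exposed libraries. The exposure groups overlapped, and per total reads the traditional libraries, at a mean of 207 ± 90.3 (SD, n = 5) in the controls, lay above the PANDORA-seq ones, at 96.8 ± 13.6 (SD, n = 4), with some overlap over all 19 libraries.

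n-TItat14, the isoleucine tRNA, gave mainly internal fragments. The 3 most abundant, shown here, begin in the anticodon, cross the junction where the intron is removed and end in the T arm.
positions 36 to 56: ataatgccgaggttgtgagtt
positions 37 to 56: taatgccgaggttgtgagtt
positions 37 to 55: taatgccgaggttgtgagt
The 21-base form made up 46.4% of the n-TItat14 reads in PANDORA-seq against 19.4% in traditional RNA-seq, and the 19-base form, at group means of 0.289 and 0.424 RPM in traditional RNA-seq, had no read in PANDORA-seq. The start at position 36 held 54.1% of the reads in PANDORA-seq against 32.5% in traditional RNA-seq, and the end at position 56 held 59.3% and 41.5%.

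The level of n-TItat14 was 3.62, 4.67, 4.78 and 4.39 RPM in the PANDORA-seq controls and 7.37, 3.67, 6.35, 4.56 and 2.74 in the DCHP-exposed libraries. In traditional RNA-seq it was 7.53, 7.45, 10.02, 7.79 and 3.14 in the controls and 7.89, 16.5, 11.4, 8.82 and 5.72 in the DCHP-exposed libraries. It was the lowest of the 5 tRNAs in the mean of each group, and the exposure groups overlapped.

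**Figure D3:**
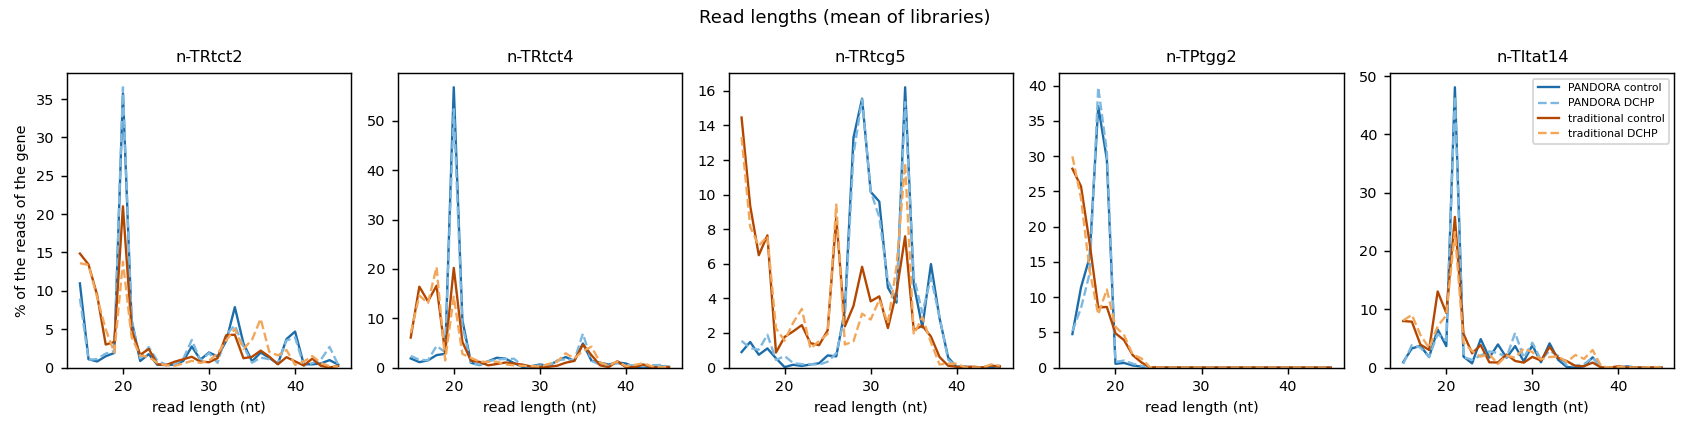
Share of the reads of each tRNA at each read length (horizontal axis, nt) in percent (vertical axis), as the mean of the libraries of each of the 4 groups. The TCT pair peaks at 20 nt and n-TItat14 at 21 nt, most sharply in PANDORA-seq, n-TRtcg5 peaks at 29 and 34 nt in PANDORA-seq and at 15 nt in traditional RNA-seq, and n-TPtgg2 at 18 and 15 nt.

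Read lengths differed by method for n-TPtgg2 and n-TRtcg5. The most frequent length of n-TPtgg2 was 18 nt in PANDORA-seq, with 37.1% of the control and 39.8% of the DCHP reads, and 15 nt in traditional RNA-seq, with 28.2% and 30%. Since 15 nt is the shortest length in the files, shorter fragments were not seen. Its mean length was 17.8 ± 0.130 nt (SD, n = 4) in the PANDORA-seq controls and 16.9 ± 0.628 nt (SD, n = 5) in the traditional controls, with no overlap, a difference that passed an exact permutation test adjusted over the 19 tRNAs tested (adjusted p = 0.0302). n-TRtcg5 reads were 30.8 ± 0.589 nt and 24.3 ± 3.18 nt long in the same groups (exact permutation test, adjusted p = 0.0302). With DCHP (n = 5 each) the means were 17.9 ± 0.131 and 17 ± 0.582 nt for n-TPtgg2 and 30.6 ± 0.501 and 24.6 ± 3.51 nt for n-TRtcg5 (exact permutation tests, adjusted p = 0.0134 for both). Both calls in the controls were lost without any 1 of 6 libraries (the 4 of PANDORA-seq and replicates 3 and 4 of traditional RNA-seq), which raises the smallest p the test can give, while the differences were then 0.89 to 1.06 nt for n-TPtgg2 and 6.34 to 7.72 nt for n-TRtcg5. The mean lengths of the other 3 tRNAs did not pass in either comparison with all reads. With exact matches only, that of n-TRtct2 was 4.07 nt longer and that of n-TItat14 1.65 nt longer in PANDORA-seq in the controls (exact permutation tests, adjusted p = 0.0238 for both), and that of n-TRtct4 2.52 nt longer with DCHP (exact permutation test, adjusted p = 0.0496). In the controls n-TRtct2 also passed without replicate 2 of traditional RNA-seq, at 3.61 nt, and n-TItat14 without replicate 5, at 1.86 nt (exact permutation tests, adjusted p = 0.0452 for both). With all reads and libraries, 52.6% of all tRNAs tested passed for length in the controls and 63.6% in the DCHP-exposed libraries. The 2 of 5 members are thus no more than the background. The shares over all tRNAs in the other settings are not given here. With reads of 18 nt or more alone, the mean length of n-TPtgg2 was instead longer in traditional RNA-seq, by 1.0 nt in the controls and 1.08 nt in the DCHP-exposed libraries. That of n-TRtcg5 was then still longer in PANDORA-seq, by 3.58 and 3.42 nt against 6.52 and 5.99 nt with all reads (exact permutation tests, adjusted p = 0.0302 and 0.0357 with 18 nt or more).

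The shares of reads by origin, which need no scaling between libraries, separated the methods for n-TRtcg5 above all. Its internal share was 6.42% ± 2.68 (SD, n = 4) in the PANDORA-seq controls and 64.2% ± 18.9 (SD, n = 5) in the traditional controls (exact permutation test, adjusted p = 0.0377), the only 1 of the 20 origin shares of members that passed in the controls with all reads. With reads of 18 nt or more, 7 others passed too, and the difference then grew for n-TPtgg2, from 8.72 to 45.9 points for the 3′ share and from -8.65 to -45.8 for the internal share, and for n-TItat14, from 4.96 to 12.9 and from -4.69 to -12.6 points (exact permutation tests, adjusted p = 0.0251 for both 3′ and 0.0232 for both internal shares). The others were the 5′ and internal shares of n-TRtct4, at -25.3 and 25.4 points (adjusted p = 0.0302 and 0.0431), and the 3′ share of n-TRtcg5, at 51.7 points (adjusted p = 0.0251, exact permutation tests). Its 3′ share, at means of 93.4% and 34.6%, and the 5′ share of n-TRtct4, at 2.42% and 24%, did not overlap either, but had adjusted p = 0.0503 (exact permutation tests). With exact matches only, both passed, at 53.0 and -21.2 points (exact permutation tests, adjusted p = 0.0476 for both), as did the internal share of n-TRtct4, at 23.1 points (exact permutation test, adjusted p = 0.0357). With 4 against 5 libraries the smallest p the test can give is 0.0159. With all reads, 42.1% of the 19 tRNAs passed for the internal share and 0% for the 5′, 3′ and 3′CCA shares. These percentages do not hold for reads of 18 nt or more or for exact matches. The shares over all tRNAs in those settings are not given here, so the added calls cannot be set against them. Control replicates of the 2 methods with the same number deviated together, but a test on the 4 such pairs cannot give a p under 0.125, so it could call none, and the mean difference over the pairs in the internal share of n-TRtcg5 was -56.9 points against -57.8 without pairing. That share also lost its call without any 1 of the 9 control libraries, which raises the smallest p, with differences of -65.0 to -52.7 points.

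Between the DCHP-exposed libraries of the 2 methods, 8 of the 20 origin shares passed. The 5′ share of n-TRtct4 was 0.958, 6.73, 3.96, 1.95 and 3.81% in PANDORA-seq and 7.09, 45.3, 21.2, 18.2 and 46% in traditional RNA-seq, without overlap (means 3.48% and 27.5%, exact permutation test, adjusted p = 0.0218). The 5′ shares of n-TRtcg5 (0.214% and 2.35%, adjusted p = 0.0318) and n-TRtct2 (0.333% and 3.56%, adjusted p = 0.0437, exact permutation tests) were also lower in PANDORA-seq, with overlapping ranges. That of n-TRtcg5 lost its call without any 1 of 7 libraries (replicates 1, 3, 4 and 5 of PANDORA-seq and 1, 3 and 4 of traditional RNA-seq), with differences of -2.48 to -1.90 points, and with exact matches, at -0.15 points (exact permutation test, adjusted p = 0.273). That of n-TRtct2 lost it without any 1 of 9 libraries, all but replicate 1 of traditional RNA-seq, with differences of -3.75 to -2.07 points, and with reads of 18 nt or more, at -2.26 points (exact permutation test, adjusted p = 0.0938). Against these 3 of 5 members stand 54.5% of all 22 tRNAs tested for the 5′ share. The 3′ share was higher in PANDORA-seq, at 91.9% against 24.6% for n-TRtcg5 and 90.0% against 75.3% for n-TPtgg2 (exact permutation tests, adjusted p = 0.0291 for both, 36.4% of tRNAs called). With reads of 18 nt or more the differences of n-TPtgg2 were 51.9 points for the 3′ share and -51.9 for the internal share, against 14.7 and -14.7 with all reads. The internal share was lower there for the same 2 tRNAs, at 7.81% against 73.1% and 9.94% against 24.6% (exact permutation tests, adjusted p = 0.0194 for both), while that of n-TRtct4 was higher in PANDORA-seq, at 92.1% against 61.6% (exact permutation test, adjusted p = 0.0476, 50% of tRNAs called). No 3′CCA share of a member passed in either comparison, where 18.2% of tRNAs passed in the DCHP-exposed libraries, and these shares were at most 0.0768% in the mean of any group. Leaving out 1 of the 10 DCHP-exposed libraries ended the 3′ calls for 6 of them (replicates 1, 3 and 4 of PANDORA-seq and 1, 3 and 5 of traditional RNA-seq), and the internal call of n-TRtct4 for 9, all but replicate 1 of traditional RNA-seq. With 1 library fewer the smallest p is 0.0159 instead of 0.00794. Where the calls ended, the 3′ differences were 66.8 to 69.5 points for n-TRtcg5, against 67.4 with all libraries, and 10.4 to 17.4 for n-TPtgg2, against 14.7, and the internal difference of n-TRtct4 was 23.9 to 33.2 points, against 30.5.

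**Figure D4:**
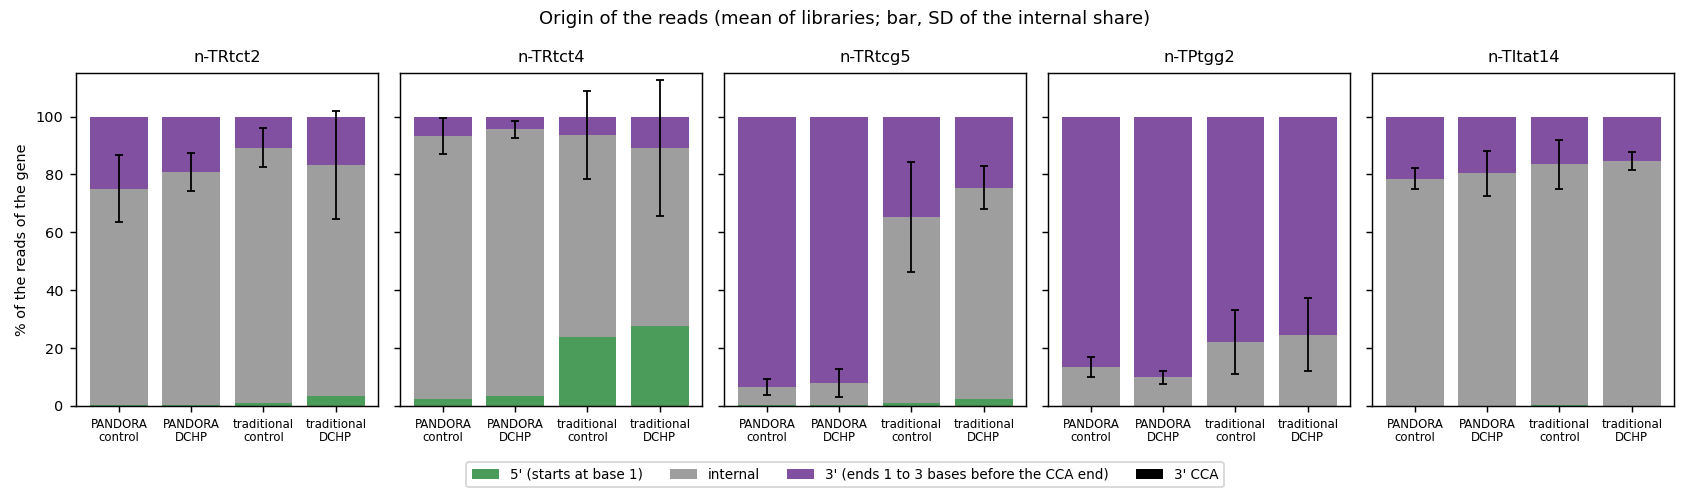
Share of the reads of each tRNA by origin (5′, 3′, 3′CCA and internal) in percent, stacked, as the mean of each of the 4 groups, with a bar for the SD of the internal share. The internal part of n-TRtcg5 is 6.42% and 7.81% in PANDORA-seq and 64.2% and 73.1% in traditional RNA-seq, and the 5′ part of n-TRtct4 is seen in traditional RNA-seq.

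The direction of the level difference between methods depended on what the levels were scaled to. Per read on all miRNA hairpins, which stands here for the total miRNA of the study but was counted by another annotation, so that it may differ from the scale of the study, all 5 members were higher in PANDORA-seq in the controls by edgeR's quasi-likelihood test with Benjamini-Hochberg adjustment over 1293 genes, with the shared reads of the TCT pair divided between the 2. The log2 differences were 2.45 ± 0.50 (SE) for n-TRtct2 (adjusted p = 2.71e-06), 1.75 ± 0.49 for n-TRtct4 (adjusted p = 0.000666), 2.49 ± 0.50 for n-TRtcg5 (adjusted p = 1.79e-06), 1.33 ± 0.50 for n-TPtgg2 (adjusted p = 0.0116) and 1.68 ± 0.50 for n-TItat14 (adjusted p = 0.00121). Of all genes, 72.3% were called and 48.3% were called higher in PANDORA-seq, and the median log2 difference of the members was 1.75 against 1.04 over all genes. In the DCHP-exposed libraries 4 of 5 members were called higher by edgeR, n-TRtct2 by 1.62 ± 0.57 (adjusted p = 0.0160), n-TRtcg5 by 2.28 ± 0.57 (adjusted p = 0.00216), n-TPtgg2 by 1.18 ± 0.40 (adjusted p = 0.0131) and n-TItat14 by 1.4 ± 0.43 (adjusted p = 0.00771). DESeq2 with the same miRNA scaling called n-TRtcg5, n-TPtgg2 and n-TItat14 and gave no p for the TCT pair. By edgeR, n-TRtct4 had 1.05 ± 0.61 (adjusted p = 0.119), 83.7% of 1429 genes were called and 47.9% called higher, and the medians were 1.4 for the members and 0.74 for all genes. Without DCHP-exposed replicate 2 of traditional RNA-seq n-TRtct4 was called too, at 2.15, and so it was with exact matches only, at 1.49 (edgeR, adjusted p = 0.0286), while n-TPtgg2, with few such reads, then lost its call, at -0.52 (edgeR, adjusted p = 0.495). With libraries of the same number as a block, n-TRtct4 had 1.69 (edgeR, adjusted p = 0.00629), where 4 of 5 such pairs deviated together. Leaving out 1 library gave 1.36 to 2.63 for n-TRtct2 and 0.784 to 2.15 for n-TRtct4. With reads that matched 1 tRNA only, n-TRtct4 lost its call in the controls, at 0.87 (edgeR, adjusted p = 0.0959), and n-TRtct2 lost its call with DCHP, at 1.09 (edgeR, adjusted p = 0.148). The value of n-TRtct4 with DCHP, which had no call, was then -0.30 (edgeR, adjusted p = 0.718), and n-TRtct2 was still called in the controls, at 2.69.

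Per total reads, by contrast, no member was called higher by edgeR. In the controls n-TPtgg2 was called lower in PANDORA-seq, with a log2 difference of -1.10 (adjusted p = 0.0123), while n-TRtct2 had 0.07, n-TRtcg5 0.08, n-TRtct4 -0.60 and n-TItat14 -0.72, and the median over all genes was -1.41. Of all genes, 55.8% were called lower there and 17.9% higher. In the DCHP-exposed libraries n-TPtgg2 (-1.34), n-TRtct4 (-1.31) and n-TItat14 (-1.03) were called lower, n-TRtct2 had -0.74 and n-TRtcg5 -0.14, and the median over all genes was -1.84. Here 63.8% of all genes were called lower and 14.8% higher. The 452 hairpins with mostly 20 to 24 nt reads gave another scale, since they held 4.54% of the hairpin reads in PANDORA-seq against 94.7% in traditional RNA-seq. Per read on these hairpins all 5 members were called higher in PANDORA-seq, with log2 differences of 6.02 to 7.34 in the controls and 5.45 to 6.57 in the DCHP-exposed libraries, where the medians over all genes were 5.66 and 5.13. On this scale 84.9% of all genes in the controls and 82.0% in the DCHP-exposed libraries were called higher too.

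**Figure D5:**
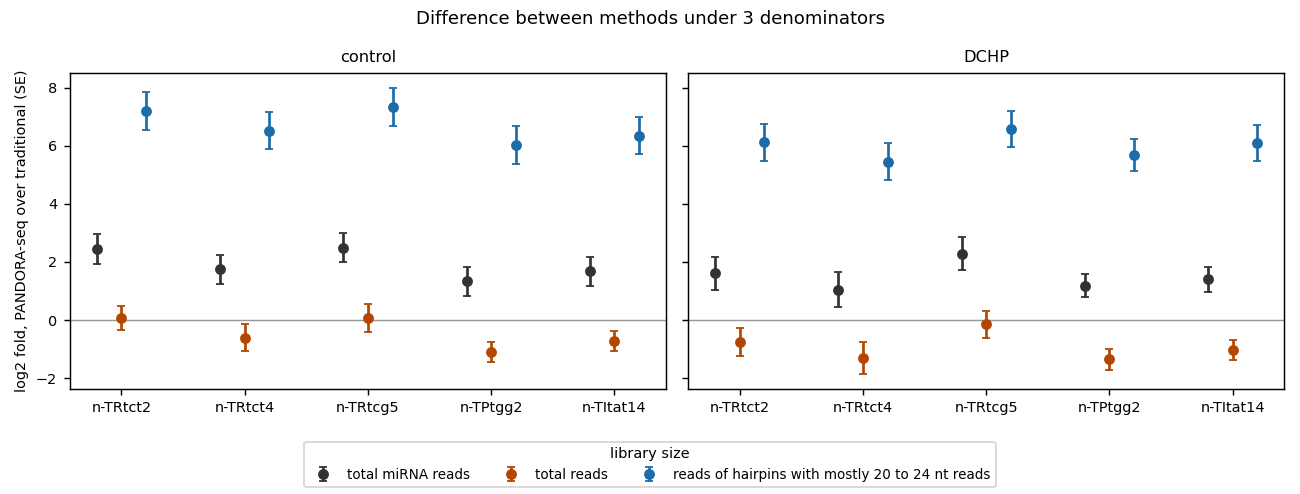
Log2 difference of each tRNA, PANDORA-seq over traditional RNA-seq (positive is higher in PANDORA-seq), with its standard error, in the control and DCHP-exposed libraries under 3 scalings: all miRNA hairpin reads, total reads, and reads of hairpins with mostly 20 to 24 nt reads. The values lie between 1.05 and 2.49 on the first scale, between -1.34 and 0.08 on the second and between 5.45 and 7.34 on the last.

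Split by origin and scaled to miRNA hairpin reads, 11 member fragments had enough reads for the edgeR fit. In the controls 9 were called, 8 of them higher in PANDORA-seq, and in the DCHP-exposed libraries 8, of which 6 were higher, against 71.3% and 82.4% of all genes. The 3′ fragments of n-TRtcg5 had the log2 differences 3.55 ± 0.53 (adjusted p = 8.26e-11) in the controls and 4.02 ± 0.72 (adjusted p = 0.000175) in the DCHP-exposed libraries, by edgeR, while its internal fragments had -0.59 ± 0.54 (adjusted p = 0.308) and -1.17 ± 0.47 (adjusted p = 0.0320). Per total reads these 3′ fragments had 1.13 in the controls, which was not called (edgeR, adjusted p = 0.173), and 1.64 in the DCHP-exposed libraries (edgeR, adjusted p = 0.0203). The internal fragments were called lower per total reads in the controls too, at -3.03 (edgeR, adjusted p = 2.88e-05), and per read on the narrow hairpins both values were positive, 4.14 and 3.33. Their call with DCHP was lost with exact matches, at -0.77 (edgeR, adjusted p = 0.159), with reads of 18 nt or more, at -1.10 (edgeR, adjusted p = 0.0855), without replicate 1, 3, 4 or 5 of PANDORA-seq, at -1.17 to -1.10 (adjusted p of 0.0518 to 0.0619 by edgeR), and without replicate 2 of traditional RNA-seq, at -0.52 (edgeR, adjusted p = 0.161). The 5′ fragments of n-TRtct4 were lower in PANDORA-seq, by edgeR, with -1.50 ± 0.61 (adjusted p = 0.0210) and -2.30 ± 0.95 (adjusted p = 0.0360), but with the pairs of control libraries as a block the first was -1.27 (adjusted p = 0.129), with reads of 18 nt or more neither was called, at -1.14 (adjusted p = 0.0899) and -2.06 (adjusted p = 0.0594), and per read on the narrow hairpins both were positive, 2.99 and 1.95. Per total reads these 5′ fragments were called lower too, at -3.95 and -4.7 (edgeR, adjusted p = 0.000171 and 0.000834). Both calls on the miRNA scale were also lost without any 1 of 4 libraries. In the controls the value was -1.11 and -1.44 without replicate 1 or 4 of PANDORA-seq and -1.26 and -1.30 without replicate 3 or 5 of traditional RNA-seq, with adjusted p of 0.0632 to 0.137 by edgeR. With DCHP it was -2.06, -2.14 and -2.14 without replicate 1, 3 or 4 of PANDORA-seq (adjusted p of 0.0667 to 0.0768 by edgeR) and -0.42 without replicate 2 of traditional RNA-seq (adjusted p = 0.517 by edgeR), the only one of these libraries that moved the log2 value by more than 1.5 times. The 3′ fragments of n-TRtct2 were higher in the controls, at 4.01 ± 0.54, and had 1.15 ± 0.95 (edgeR, adjusted p = 0.269) in the DCHP-exposed libraries, but 3.62 (adjusted p = 4.16e-05) there without replicate 2 of traditional RNA-seq. With the replicate block the DCHP value was 3.11 (edgeR, adjusted p = 0.0093). Per total reads these fragments had 1.42 and -1.16 (edgeR, adjusted p = 0.0169 and 0.267), and per read on the narrow hairpins 8.72 and 5.8. The internal fragments of n-TPtgg2 had 0.72 ± 0.49 and 0.09 ± 0.33 and were not called, but were lower per total reads, at -1.55 and -2.39 (edgeR, adjusted p = 0.00111 and 3.09e-06), and with reads of 18 nt or more, at -2.35 and -2.56 (edgeR, adjusted p = 3.53e-05 and 1.04e-05), and higher per read on the narrow hairpins, at 5.49 and 4.67.

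Reads with intron bases, which the spliced tRNA lacks, came mostly from n-TRtct2, whose locus lies within an exon of Gm17494 on the same strand, so that its precursor and a piece of that transcript cannot be told apart here. Reads with at least 3 intron bases numbered 1522 for n-TRtct2, against 5866 reads across its spliced junction (20.6% of both), 119 against 6304 for n-TRtct4 (1.85%) and 5 against 1804 for n-TItat14 (0.276%). In single libraries the share of n-TRtct4 ran from 0% to 21.7% and that of n-TItat14 from 0% to 2.27%. Junction reads that matched both TCT tRNAs were divided between the 2, while the introns differ. The intron shares of this pair thus depend on that division and are not shares of either gene alone. These reads are shown because they hold bases that the spliced tRNA lacks, with the intron bases in capitals and positions counted along the locus with its intron.
n-TRtct2, 21 to 48: agcgcattggacttctaGAGGCTGAAGG
n-TRtct2, 26 to 48: attggacttctaGAGGCTGAAGG
n-TRtct2, 28 to 44: tggacttctaGAGGCTG
The first had 236 reads in 17 libraries, the second 194 in 15 and the last 104 in 9, all of them traditional. The first and the second end 1 base before the intron does, and the first begins at the same base as the 20-base fragment of the spliced pair. The intron share of n-TRtct2 was 18.9, 28.9, 25.6 and 9.87% in the PANDORA-seq controls and 18.6, 13.6, 39.3, 24.6 and 17.3% in the DCHP-exposed libraries. The values in traditional RNA-seq were 34.2, 43.6, 15.2, 19.3 and 41.8% in the controls and 14.1, 9.03, 45.8, 63.8 and 31.1% in the DCHP-exposed libraries. The ranges of all 4 groups overlapped, from 9.03% to 63.8%.

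Reads that ran past the 3′ end of the tRNA into at least 3 bases of the genome were also seen. They, too, cannot be told apart from pieces of Gm17494 for n-TRtct2 and of Gm10616, on the same strand, for n-TRtcg5. Over all libraries there were 293 such reads for n-TRtct2, 189 for n-TRtct4, 47 for n-TRtcg5, 41 for n-TItat14 and 0 for n-TPtgg2, most of whose reads carry bases that its locus lacks. DCHP-exposed replicate 2 of traditional RNA-seq held 101 of the n-TRtct2 and 72 of the n-TRtct4 reads, leaving 192 and 117 without it, and DCHP-exposed replicate 5 held 17 of the n-TItat14 reads, leaving 24. The 41 reads of n-TItat14 came from 7 of 10 traditional libraries and none of 9 PANDORA-seq libraries. The mature miR-1983, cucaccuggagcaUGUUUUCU, shares 13 bases with the 3′ end of n-TItat14 and runs 8 bases, in capitals, past it. It had 0 exact reads in 711662713, which allows up to 0.00422 RPM.

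Mismatches to the locus were frequent at single positions. Over all libraries, of the n-TPtgg2 reads that covered the position, 99.2% carried A63G, 98.7% A29G, 97.4% T16G and 78.5% T49C. Allowing these bases added 159 and 219 reads in the control and DCHP-exposed libraries of PANDORA-seq and 1187 and 1472 in those of traditional RNA-seq, which had more than 1 mismatch to the locus, and the levels of n-TPtgg2 then had group means of 97.6 (PANDORA-seq control), 100.1 (PANDORA-seq DCHP), 210.4 (traditional control) and 256 (traditional DCHP) RPM. With these bases allowed, the mean lengths were 17.87 (PANDORA-seq control), 17.98 (PANDORA-seq DCHP), 16.99 (traditional control) and 17.14 nt (traditional DCHP). Where the reads with these bases come from was not tested, since other proline tRNA loci were not analysed here. Among positions that at least 20 reads covered in each library of a group, the others over 10% in the mean of that group were 18 and 58 of n-TRtct2, 32 and 59 of n-TRtct4, 23, 26 and 50 of n-TRtcg5 and 60 of n-TItat14.

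At position 18 of n-TRtct2 the mismatch rate was 74.1% ± 12.9 (SD, n = 4) in the PANDORA-seq controls and 62.8% ± 4.60 (SD, n = 5) in the DCHP-exposed libraries, and 26.6% ± 14.9 and 21.2% ± 10.02 (SD, n = 5 each) in traditional RNA-seq. The change was mainly G18A, seen in the shown fragment of positions 5 to 19. Reads with 1 mismatch to a tRNA were counted for it before other small RNA genes were tried. Whether the reads with G18A came from n-TRtct2 or from another RNA was thus not tested. At position 59 of n-TRtct4, 1 of the 7 positions at which the TCT pair differs, the substitution A59G gives the base of n-TRtct2, and the mismatch rate was 48.4% to 60.0% in the group means. At position 60 of n-TItat14 it was 40.9% to 43.5%, mainly G60T. At position 23 of n-TRtcg5 it was 22.0% ± 14.8 and 31.3% ± 10.5 (SD, n = 5 each) in the control and DCHP-exposed libraries of traditional RNA-seq. Of 1404 tests of a tRNA position between methods with at least 50 reads in each library, 275 on members, none passed an exact permutation test after adjustment (0% of all positions called), and the smallest adjusted p was 0.0673. An unadjusted p under 0.05 was given to 41 of the 275 tests on members and to 445 of all 1404.

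The share of reads with a mismatch was lower in PANDORA-seq for 3 of the members in at least 1 exposure group. It was 7.68% against 31.7% for n-TRtcg5 and 12.7% against 25% for n-TRtct4 in the controls (exact permutation tests, adjusted p = 0.0215 for both), where 73.7% of the tRNAs were called, and both had adjusted p = 0.0510 without PANDORA-seq control replicate 3 (differences of -24.3 and -11.2 points). For n-TRtct2 the difference in the controls was -12.4 points and did not pass (exact permutation test, adjusted p = 0.0603). It passed with reads of 18 nt or more, at -16.7 points, and without PANDORA-seq control replicate 1, at -15.3 points (exact permutation tests, adjusted p = 0.0201 and 0.0437). In the DCHP-exposed libraries the share was 9.47% against 35% for n-TRtcg5, 11.2% against 30.1% for n-TRtct4 and 14.0% against 27.7% for n-TRtct2 (exact permutation tests, adjusted p = 0.0134 for all 3), where 81.8% were called. For n-TPtgg2, whose locus sequence differs from most of its reads, it was 99.9% against 99.7% in the DCHP-exposed libraries (exact permutation test, adjusted p = 0.0291), a call lost without any 1 of 7 libraries (replicates 1, 2, 3 and 5 of PANDORA-seq and 2, 3 and 5 of traditional RNA-seq), with differences of 0.164 to 0.208 points, and with reads of 18 nt or more, at 0.074 points (exact permutation test, adjusted p = 0.149). That of n-TItat14 was 24.1% to 29.6% in the group means and did not pass.

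No difference in level between DCHP-exposed and control libraries passed the test for any of the 5 tRNAs. In PANDORA-seq the log2 differences, DCHP over control per miRNA hairpin read, were 0.29 ± 0.27 (SE) for n-TRtct2, 0.48 ± 0.33 for n-TRtct4, 0.58 ± 0.42 for n-TRtcg5, 0.16 ± 0.30 for n-TPtgg2 and 0.27 ± 0.31 for n-TItat14, each with adjusted p = 1.0 by edgeR. None of 846 genes was called (0%), 33 had an unadjusted p under 0.05, and DESeq2 also called 0, with 36 under 0.05. The median of the members was 0.29 and that of all genes 0.09. Each of the 5 values was smaller than 2 of its standard errors.

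In traditional RNA-seq the log2 differences were 1.12 ± 0.55 (SE) for n-TRtct2, 1.18 ± 0.57 for n-TRtct4, 0.80 ± 0.53 for n-TRtcg5, 0.31 ± 0.45 for n-TPtgg2 and 0.55 ± 0.47 for n-TItat14, with adjusted p of 0.928 to 0.962 by edgeR. None of 1587 genes was called by edgeR (0%), with 66 at an unadjusted p under 0.05, and none by DESeq2, with 64. The median of the members was 0.80 and that of all genes 0.29. These values rested on DCHP-exposed replicate 2. Without that library the log2 differences were 0.11 for n-TRtct2, 0.08 for n-TRtct4, 0.04 for n-TRtcg5, 0.03 for n-TPtgg2 and 0.15 for n-TItat14. Without control replicate 3, the high library of the other group, they were 1.42, 1.52, 1.24, 0.22 and 0.62 in the same order.

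Split by origin, the 3′ fragments of the TCT pair in traditional RNA-seq had log2 differences between exposure groups of 2.73 ± 0.82 for n-TRtct2 (edgeR, adjusted p = 0.452) and 2.73 ± 0.76 for n-TRtct4 (edgeR, adjusted p = 0.441). The 5′ fragments had 2.89 ± 0.96 and 2.04 ± 0.73, and the internal fragments of n-TRtcg5 1.13 ± 0.49. These 5 of the 12 fragments tested had an unadjusted p under 0.05, but none of 1640 genes was called (0%), with 80 under 0.05. Without DCHP-exposed replicate 2 the 3′ values were 0.25 and 0.64, the 5′ fragments of n-TRtct4 had 0.14, the internal fragments of n-TRtcg5 0.48, and the 5′ fragments of n-TRtct2 were too few to be tested. Without DCHP-exposed replicate 4 both 3′ values were 3.03 and called by edgeR (adjusted p = 0.0359 and 0.0303), so that they depended on 1 library. In PANDORA-seq none of 878 genes was called, with 38 under 0.05, and no share or mean length of a member passed the exact permutation test between exposure groups in either method (0% of tRNAs called).

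The effect of exposure was not shown to differ between methods. The interaction terms, the log2 difference in PANDORA-seq minus that in traditional RNA-seq, were -0.83 ± 0.75 for n-TRtct2, -0.70 ± 0.81 for n-TRtct4, -0.22 ± 0.77 for n-TRtcg5, -0.14 ± 0.61 for n-TPtgg2 and -0.28 ± 0.63 for n-TItat14, each with adjusted p = 1.0 by edgeR, and 0 of 1636 genes were called (0%), with 42 under an unadjusted 0.05. Among single sequences, 12 member sequences in PANDORA-seq against 23 in traditional RNA-seq were among the 20000 most abundant tested by edgeR, and none passed an adjusted p of 0.1 with a 2-fold change, against 0.01% and 0% of all sequences (2 and 0 sequences). An unadjusted p under 0.05 was given to 1 member sequence of traditional RNA-seq and to 0 of PANDORA-seq. Other settings called more sequences, but no member: 142 and 20 with DESeq2 on miRNA size factors, 62 in PANDORA-seq per read on the narrow hairpins, and 10 in traditional RNA-seq with the replicate block. On simulated data the same fit recovered 49% of 4-fold changes in PANDORA-seq but 3% in traditional RNA-seq. There a call was an adjusted p under 0.05 without a fold limit, and all sequences had the same spread between libraries. These shares are thus not those of the rule and data used here. Changes of that size could still be missed. The member sequence with the smallest p was the 18-base 5′ fragment of n-TRtct4 in traditional RNA-seq, with a log2 difference of 2.31 ± 0.995 (edgeR, adjusted p = 1.0).

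The pattern over libraries most like that of each tRNA was sought among 1631 other small RNA genes, by Pearson's r of log2 levels as deviations from the 4 group means over 19 libraries, which share their total reads as denominator. n-TRtct2 was most like Gm25818 (r = 0.889), Gm23680 (0.888) and Snora28 (0.884), and n-TRtct4 most like Gm25818 (0.899), Gm23330 (0.833) and Gm23240 (0.831). n-TRtcg5 was most like Gm24136 (0.898), Gm23330 (0.874) and Gm25818 (0.854). n-TPtgg2 was most like Gm23061 (0.892), Mir762 (0.872) and Mir6974 (0.862), and n-TItat14 like the mitochondrial valine tRNA mt-Tv (0.807), the rRNA CT010467.1 (0.784) and Mir703 (0.743). Between members, r was 0.962 for the TCT pair, whose reads are partly divided between the 2, 0.849 for n-TRtct4 and n-TRtcg5, 0.819 for n-TRtct2 and n-TRtcg5, and 0.193 to 0.55 for the pairs with n-TPtgg2 or n-TItat14.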

How the data were processed

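For each of the 19 libraries the authors deposited counts: every distinct sequence of 15 to 45 nt with its number of reads after cleaning, not normalized and without molecular identifiers. Per the study's methods, reads were annotated with SPORTS1.1 and scaled to total miRNA. Adapter settings are not given in the sources used here, and neither is a batch. Since DCHP stands as treatment in the labels of all libraries, controls were told by their titles.

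Sequences were first matched to the tRNAs (sense, at most 1 mismatch), and the rest aligned by bwa 0.7.19 to miRNA hairpins and other small RNA genes in GRCm38. Levels are reads per 1000000 total reads (RPM). Genes with at least 10 reads in at least 4 libraries were tested on counts with edgeR 4.0.16 (quasi-likelihood), with miRNA hairpin reads, in place of the study's miRNA annotation, as library size and Benjamini-Hochberg adjustment over all genes, called below 0.05. Alternatives used total reads, 452 of the 2160 hairpins, TMM and DESeq2 1.42.0. Shares and mean lengths of tRNAs with at least 20 reads in each library were compared by two-sided exact permutation tests, adjusted over all tRNAs tested. The named sequences were the 3 most abundant of each tRNA and the 2 most abundant of each method. Positions with at least 20 reads in each library of a group were named where the mismatch rate exceeded 10% in its mean. Markers were counted as exact matches of at least 20 nt to mRNAs, and hairpin reads for miRNAs. The members, lists and tests were chosen with earlier results of these data known.

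Control replicates with the same number deviated together across methods (r = 0.139 to 0.25 in 4 of 4 pairs). This pairing was taken from the data, as the labels do not say what a number marks. The main tests were not paired, and the pairs entered only as an alternative, the replicate block. Tested on simulated data, the edgeR fit of genes recovered 70% of 4-fold and 14% of 2-fold changes for the methods in the controls (1293 genes), and 88% and 16% in DCHP (1429 genes). For exposure it recovered 95% and 49% in PANDORA-seq (846 genes) but 75% and 13% in traditional RNA-seq (1587 genes). The fit of single sequences recovered 49% of 4-fold and 3% of 2-fold changes in PANDORA-seq (19999 sequences) but 3% and 0% in traditional RNA-seq (19970). In the simulation these were called at an adjusted p below 0.05 without a fold limit, unlike the sequences of the data. All genes or sequences of a simulation had the same dispersion (spread between libraries beyond counting error). In the data it can differ between genes, so these shares may not hold for a given gene. Limits for a count of 0 cover counting error only. No 2 libraries of a group agreed within sampling noise (chi-square per degree of freedom at least 89.4).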

Additional observations from a re-analysis of the deposited data

Results flagged for a closer look

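In 96 groups of 4 or 5 libraries, each checked for 1 library far from the rest by Dixon's test, 9 stood out, and chance gives about 1 in 20. DCHP-exposed replicate 2 of traditional RNA-seq stood far above its group for 3 arginine tRNAs, with 96.4 RPM for n-TRtct2 (others 10.97 to 24.96), 103.4 for n-TRtct4 (others 9.17 to 28.7) and 52.1 for n-TRtcg5 (others 9.84 to 19.02). Control replicate 3 of traditional RNA-seq did so for n-TRtct4, at 40.1 RPM (others 10.4 to 17.8), and n-TRtcg5, at 34.9 (others 7.81 to 11.6). The exposure values of these tRNAs with and without the 2 libraries are given above.

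Control replicate 2 of PANDORA-seq had an internal share of 10.4% for n-TRtcg5 (others 4.77% to 5.29%) and a 3′ share of 89.0% (others 94.7% to 94.8%), which are nearly complements. The share of exact matches was 80.2% for n-TRtct2 in DCHP-exposed replicate 1 of traditional RNA-seq (others 69.1% to 72.3%) and 69.9% for n-TRtct4 in control replicate 5 of traditional RNA-seq (others 75.6% to 77.0%).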

How the results depend on the processing

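The method comparison of levels depended on the scaling, and the calls of shares on the shortest read length. Of the 5 members, 1 was called in the controls per total reads (0 higher), 2 with TMM and 2 with DESeq2's own size factors, and 3 (0 higher), 1 and 1 in the DCHP-exposed libraries. Of the member fragments by origin, 5 (1 higher) and 4 were called in the controls per total reads and with TMM, and 7 (1 higher) and 4 (1 higher) in the DCHP-exposed libraries. The shares over all genes in these fits by origin were 73.7% and 76.4% in the controls and 78.7% and 76.6% in the DCHP-exposed libraries. Of the shares and lengths, 13 were called in the controls with reads of 18 nt or more, against 5 with all reads, and 7 in the DCHP-exposed libraries with exact matches, against 14, where the mismatch shares cannot be had and n-TPtgg2 had too few reads. The shares over all tRNAs in these 2 settings are not given here, so the change in calls cannot be set against them. With the replicate block 0 were called in either, which says nothing about the differences, since 4 pairs cannot give an exact p under 0.125 and 5 pairs none under 0.0625. Leaving out 1 library gave 0 to 5 and 8 to 11 calls of shares and lengths in the controls and DCHP-exposed libraries, and 0 to 2 calls of origins by exposure in traditional RNA-seq by edgeR, and the smallest exact p for a share or length rises with 1 library fewer. In the exposure comparisons replicates shared only a number (1 of 4 and 0 of 5 pairs deviated together), and the block called 0 members there. In the DCHP-exposed libraries 4 of 5 pairs of methods deviated together, where the block added the calls of n-TRtct4 (1.69, adjusted p = 0.00629 by edgeR) and of the n-TRtct2 3′ fragments (3.11, adjusted p = 0.0093 by edgeR) and gave -1.38 (adjusted p = 0.0133 by edgeR) for the n-TRtct4 5′ fragments. In the controls it changed no call of a whole tRNA but ended that of the n-TRtct4 5′ fragments (-1.27, adjusted p = 0.129 by edgeR), which was also lost with reads of 18 nt or more (-1.14, adjusted p = 0.0899), as it was with DCHP (-2.06, adjusted p = 0.0594, both by edgeR).

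Single log2 values changed direction per total reads in the controls for n-TRtct4 (-0.60), n-TPtgg2 (-1.10) and n-TItat14 (-0.72), and in the DCHP-exposed libraries for n-TRtct2 (-0.74), n-TRtct4 (-1.31), n-TRtcg5 (-0.14), n-TPtgg2 (-1.34), n-TItat14 (-1.03) and n-TRtct2 3′ (-1.16). n-TPtgg2 had -0.0625 with TMM and -0.13 with DESeq2's own size factors in the controls, -0.52 with exact matches in the DCHP-exposed libraries, and, for exposure, -0.0599 on the narrow hairpins in PANDORA-seq and -0.00919 with DESeq2's own size factors in traditional RNA-seq. n-TRtct4 had -0.30 with reads on 1 tRNA only (DCHP), its 5′ fragments 2.99 and 1.95 on the narrow hairpins and the n-TRtcg5 internal fragments 4.14 and 3.33. The n-TPtgg2 internal fragments had -1.55 and -2.39 per total reads, -0.65 and -1.05 with TMM, and -2.35 and -2.56 at 18 nt or more. With the replicate block the interaction was 0.18 for n-TRtcg5 and 0.0207 for n-TItat14. Shares and lengths changed direction, in the controls, for n-TRtct4 3′ (-1.88 points with exact matches, -0.179 at 18 nt or more) and length (-0.032 nt at 18 nt or more), n-TPtgg2 length (-1.0 nt at 18 nt or more, adjusted p = 0.0302 by exact permutation test), n-TItat14 3′ and internal (-0.146 and 0.146 points with exact matches) and mismatch (2.58 points with the block), and n-TPtgg2 mismatch (-0.0121 points at 18 nt or more). In the DCHP-exposed libraries they did for n-TRtct2 3′ (-2.0 points) and length (-1.29 nt), n-TRtct4 (-0.89 nt), n-TPtgg2 (-1.08 nt) and n-TItat14 length (-0.537 nt), all at 18 nt or more, and n-TRtct2 internal (-0.863 points with exact matches). The cause of these changes was not tested, other than that a minimum of 18 nt drops the reads of 15 to 17 nt.

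Leaving out 1 library changed direction for the exposure value of n-TPtgg2 in PANDORA-seq (-0.0477 to 0.293), the interactions (n-TRtct2 -1.13 to 0.18, n-TRtct4 -1.04 to 0.40, n-TRtcg5 -0.66 to 0.54, n-TPtgg2 -0.62 to 0.14, n-TItat14 -0.50 to 0.12), the n-TPtgg2 internal fragments with DCHP (-0.0709 to 0.249), n-TRtct4 3′ (-1.67 to 2.05 points) and n-TItat14 mismatch (-3.69 to 2.58 points) in the controls, and n-TRtct2 3′ (-1.14 to 7.46 points) and internal (-4.92 to 5.18 points) in DCHP. Exact matches left too few n-TPtgg2 reads for a value in the controls and for exposure in PANDORA-seq. Counting n-TPtgg2 with its 4 substituted bases, an alternative chosen after seeing the data, changed no count of members called. Of the single log2 values under these alternatives, 277 kept direction and call, 20 lost the call, 9 gained it and 27 reversed.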
